A study of Mus musculus with 14 samples.

Results

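The 10 genes described here carry arginine into the cell, split it, and make, break down or regulate the polyamines derived from it. They were chosen by name as Arg1, Arg2, Slc7a1, Slc7a2, Odc1, Srm, Sms, Sat1, Azin1 and Oaz1, and each was found as 1 of the 55487 gene identifiers of the deposited count table. All 10 had enough counts to be tested, among 14754 genes that did. The source was monocytes purified from mouse leg bone marrow, at a stated purity of 90 to 95%, and cultured ex vivo for 3 h before their messenger RNA was sequenced. The 14 libraries formed 4 groups. AhR-deficient cells, which by their label lack the aryl hydrocarbon receptor (AhR, a ligand-activated transcription factor), were kept with 20 ng/mL of mouse IL-4 or in medium alone (n = 3 each, numbers 4, 5 and 6). Wild-type cells were kept with the same dose of IL-4 or in medium alone (n = 4 each, numbers 1, 2, 3 and 7). IL-4 is a cytokine of type 2 immunity. All groups shared the isolation kit, the culture and its duration, so medium is a culture control and not fresh blood or marrow. The allele behind the deficiency, the strain, the age and whether a library came from 1 mouse or from pooled mice are not given in these sources, so p-values measure the spread between these libraries, which may be technical.

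Arginase hydrolyses arginine to urea and ornithine, and cationic amino acid transporters bring the arginine in. Ornithine decarboxylase turns ornithine into putrescine, and spermidine synthase and spermine synthase then add aminopropyl groups to give spermidine and spermine. Antizyme binds ornithine decarboxylase and sends it to the proteasome, antizyme inhibitor takes antizyme away, and an acetyltransferase marks spermidine and spermine for breakdown or export. In mice Arg1 and Slc7a2 are known as genes that IL-4 induces in macrophages.

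Library totals ran from 33432502 to 42885079 counts. Markers that define monocytes (Csf1r, Ly6c2, Ccr2, Cx3cr1, Cd14 and Fcgr1) were detected in every library, and their summed level was 3713 to 4114, 4972 to 5682, 4394 to 4782 and 4853 to 5946 CPM in AhR-deficient cells in IL-4, AhR-deficient cells in medium, wild type in IL-4 and wild type in medium. With IL-4, 0 of the 6 rose and 3 fell in each genotype: Cx3cr1 averaged 256 against 812 CPM in medium in AhR-deficient cells and 223 against 743 CPM in wild type, and Cd14 157 against 592 CPM and 90.6 against 377 CPM. Between genotypes 1 was higher and 1 lower in each condition, with Ccr2 at 508 against 1714 CPM in IL-4 and 381 against 1277 CPM in medium. CPM is the count scaled to a common library size (TMM-scaled CPM of edgeR). Transcripts of Ahr itself were more abundant, not scarcer, in the libraries labelled as deficient, at 41.9 ± 4.43 CPM against 25.5 ± 1.40 CPM in wild type in IL-4 and 20.9 ± 5.23 CPM against 13.02 ± 1.60 CPM in medium (SD, n = 3 and 4; edgeR adjusted p = 0.0270 and 0.0144). Counts per gene do not show whether part of the gene is deleted. All 6 AhR-deficient libraries had 987 to 1284 CPM of Xist and 0 CPM of Ddx3y. All 8 wild-type libraries had 0.0242 to 2.12 CPM of Xist and 114 to 143 CPM of Ddx3y. Every difference between the genotypes below is therefore also a difference between female-typed and male-typed libraries, and these cannot be told apart. Libraries of number 1 and number 2 held the most neutrophil and eosinophil transcripts, so that the 8 neutrophil markers summed to 219 to 407, 242 to 479, 334 to 683 and 269 to 748 CPM over the 4 groups in the same order. In bulk samples, fewer cells of a type and less RNA per cell cannot be told apart.

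**Figure D1:**
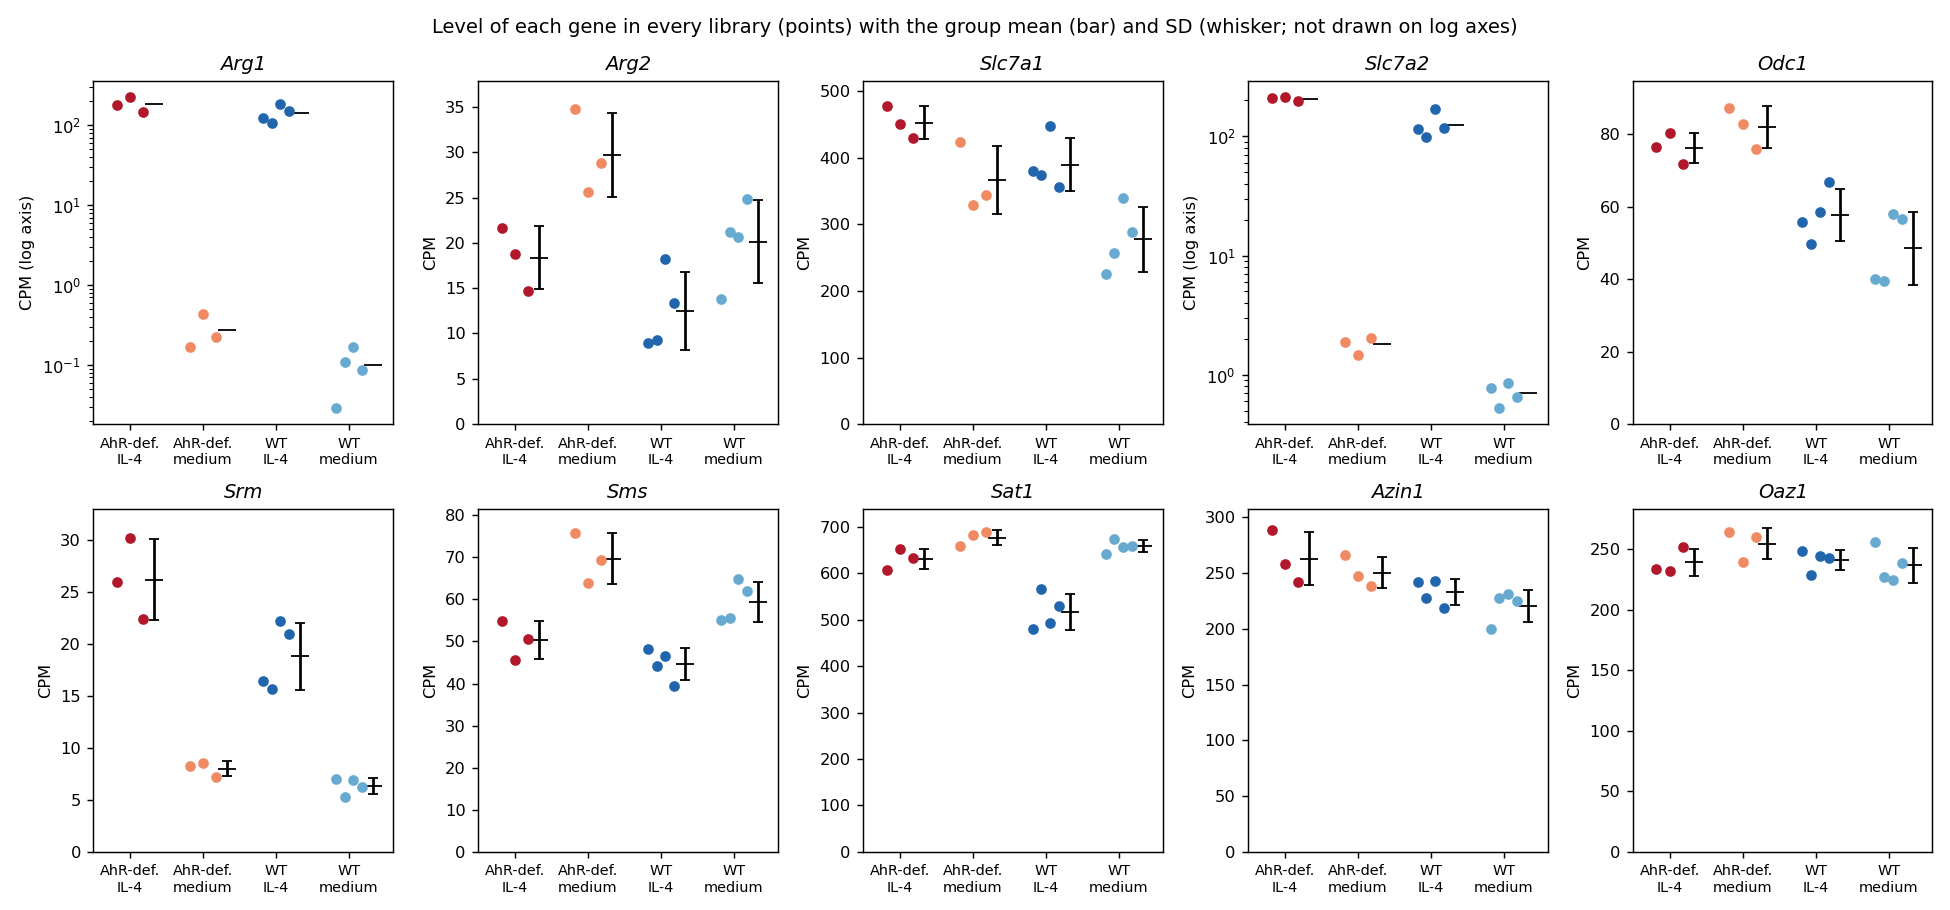
Level of each of the 10 genes in TMM-scaled CPM in every library (points) by group, with the group mean (bar) and the SD (whisker; not drawn on the log axes of Arg1 and Slc7a2). Arg1 and Slc7a2 stood near 0 in medium and above 98 CPM in every IL-4 library, and Srm stood at 15.7 CPM or more in IL-4 against 8.51 CPM or less in medium.

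Arginase 1 and the transporter Slc7a2 were nearly absent in medium and stood above 98 CPM in every IL-4 library of both genotypes. With IL-4, Arg1, Slc7a2 and Srm rose and Sms fell in AhR-deficient cells, and the other 6 did not pass the test (edgeR's quasi-likelihood test, Benjamini-Hochberg adjusted p under 0.05). In wild type, Arg1, Slc7a1, Slc7a2 and Srm rose, Arg2, Sms and Sat1 fell, and Odc1, Azin1 and Oaz1 did not pass. The 4 of 10 called in AhR-deficient cells stood against 29.5% of all genes tested, and the 7 of 10 called in wild type against 35.9%. By direction, 3 rose where 15.4% of all genes rose in AhR-deficient cells, and 4 rose where 19.4% did in wild type. Sms alone fell in AhR-deficient cells against 14.2% of all genes, and 3 in wild type against 16.5%. The median log2 change of the 10 was -0.01 in AhR-deficient cells, where that of all genes was -0.01, and 0.16 in wild type, where that of all genes was 0.01. IL-4 and medium libraries did not overlap for 7 of the 10 in AhR-deficient cells (43.7% of all genes) and for 6 of the 10 in wild type (33.2%). These counts come from a fit that does not use the numbers. With the number as a block in edgeR, 4 rose and 2 fell in AhR-deficient cells, where 5344 of all 14754 genes were called. In wild type 5 rose and 3 fell, where 6297 genes were called. AhR-deficient groups had 3 libraries each and wild-type groups 4, so counts of calls do not compare the responses. The difference between the genotypes in the IL-4 response is tested further on, and no member passed it. Markers of other cell types moved with IL-4 as well. Of the 8 neutrophil markers 1 rose in each genotype, and Cxcr2 averaged 10.9 CPM in IL-4 against 1.27 CPM in medium in AhR-deficient cells and 11.8 against 1.89 CPM in wild type. Pecam1, of the 4 fibroblast and endothelial markers, averaged 147 CPM in IL-4 against 20.9 CPM in medium in AhR-deficient cells and 152 against 22.8 CPM in wild type, while Col1a1, Col3a1 and Cdh5 stayed at 7.04 CPM or less in every library. Flt3, the 1 dendritic cell marker of 4 that rose, averaged 80.6 against 33.1 CPM and 76.5 against 34.6 CPM in the same order. Zbtb46 averaged 4.22 against 6.76 CPM and 2.94 against 4.26 CPM, Siglech 3.94 against 5.06 CPM and 6.64 against 6.41 CPM, and Xcr1 was at 0 in 6 of the 14 libraries. The part of these transcripts in the changes of the 10 genes was not tested.

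Arg1 encodes arginase 1, the cytosolic enzyme (ENSMUSG00000019987.9, GRCm38 chromosome 10, 24915221 to 24927484, minus strand). In AhR-deficient cells numbers 4, 5 and 6 had 181, 228 and 148 CPM in IL-4, against 0.166, 0.438 and 0.223 CPM in medium. In wild type numbers 1, 2, 3 and 7 had 124, 107, 185 and 153 CPM in IL-4, against 0.0286, 0.110, 0.170 and 0.0859 CPM in medium. All 7 IL-4 libraries were high and all 7 medium libraries were close to 0, with 6, 17 and 8 reads in AhR-deficient and 1, 4, 7 and 3 reads in wild-type medium libraries. The log2 change was 9.36 ± 0.33 in AhR-deficient cells (± SE, adjusted p = 1.20e-10) and 10.40 ± 0.32 in wild type (adjusted p = 1.93e-11). These SEs derive from the F statistic and are likely too small for a change from near 0. The SE with limma-voom was 0.86 and 1.02 in the same order. With so few reads in medium, the size of either change rests on the medium libraries, and within numbers it ran from 9.02 to 12.08. Between genotypes Arg1 did not pass in either condition with edgeR. Its difference was 0.39 ± 0.18 in IL-4 (adjusted p = 0.265), where the genotypes overlapped, and 1.43 ± 0.77 in medium (adjusted p = 0.255). With DESeq2 the difference in medium was 1.46 and passed (adjusted p = 0.0371), the only 1 of 24 alternatives in which it did. Group 2 innate lymphoid cells, known to hold Arg1 in mice, were followed by Gata3, Il1rl1, Il5, Il13 and Rora. These summed to 18.5 to 22.8 CPM in IL-4 against 22.5 to 26.8 CPM in medium in AhR-deficient cells. In wild type they summed to 15.2 to 20.4 against 20.6 to 27.8 CPM. With IL-4, 0 of the 5 rose and 1 fell in each genotype. Between genotypes 1 was higher and 0 were lower in AhR-deficient cells in each condition. Gata3 averaged 2.90 against 1.005 CPM in wild type in IL-4 and 2.41 against 1.06 CPM in medium. Il5 averaged 1.64 against 0.463 CPM and 2.65 against 1.08 CPM in that order. Means of Il13 and Il1rl1 were also higher in both conditions, and that of Rora lower. The part of these transcripts in the Arg1 levels was not tested.

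Arg2 encodes the mitochondrial arginase and, unlike Arg1, was lower in IL-4 (ENSMUSG00000021125.6, chromosome 12, 79130777 to 79156301, plus strand). It had 21.6, 18.8 and 14.7 CPM in IL-4, against 34.7, 25.6 and 28.8 CPM in medium, in AhR-deficient numbers 4, 5 and 6. Wild-type numbers 1, 2, 3 and 7 had 8.92, 9.32, 18.2 and 13.4 CPM in IL-4, against 13.8, 21.2, 20.7 and 24.8 CPM in medium. It was lower in IL-4 in each of the 7 numbers, without overlap of the groups in AhR-deficient cells and with overlap in wild type. The log2 change was -0.69 ± 0.26 in AhR-deficient cells, which missed the threshold (adjusted p = 0.0560) and passed when numbers were fitted as a block (adjusted p = 0.00471). It also passed without wild-type number 1 or 3 in IL-4 (adjusted p = 0.0489 and 0.0245) or number 1 in medium (adjusted p = 0.0355). These wild-type libraries enter that comparison only through steps shared by all libraries, such as the spread, the filter and the scaling. In wild type it fell by 0.70 ± 0.23 (adjusted p = 0.0265). Leaving out wild-type number 1 or 2 in IL-4 lost that call (adjusted p = 0.0730 and 0.0794), as did leaving out number 2 or 7 in medium (adjusted p = 0.0581 and 0.0808). Without numbers 1 and 2 the wild-type change was -0.53 (adjusted p = 0.0940), and with only the 2 groups compared in the model it missed the threshold as well (adjusted p = 0.0504). Between genotypes Arg2 was 0.56 ± 0.24 higher in AhR-deficient cells in both IL-4 and medium, which did not pass (adjusted p = 0.233 and 0.148). Its span from start to end overlaps by 285 bases with that of Vti1b on the opposite strand, and the overlap of exons was not computed. Vti1b had 22221 counts over the 14 libraries where Arg2 had 10281. No source used here gives the strand setting of the counting, so the level of Arg2 is uncertain.

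Per kb of exon, the arginase transcripts changed places. Arg1 made up 86.5 ± 2.18% of the summed level per kb of Arg1 and Arg2 in AhR-deficient cells in IL-4, against 0.628 ± 0.407% in medium (SD, n = 3 each). In wild type the share was 88.1 ± 1.32% in IL-4, against 0.302 ± 0.168% in medium (n = 4 each). Arg2 was thus the main arginase transcript in all 7 medium libraries and Arg1 in all 7 IL-4 libraries. Within the IL-4 groups the share ran from 84.3 to 88.6% in AhR-deficient and from 86.7 to 89.9% in wild-type libraries, which overlap. These shares are a description with no test.

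Slc7a2 encodes the cationic amino acid transporter CAT2 (ENSMUSG00000031596.15, chromosome 8, 40862396 to 40922308, plus strand). AhR-deficient numbers 4, 5 and 6 had 209, 215 and 197 CPM in IL-4, against 1.90, 1.47 and 2.03 CPM in medium. Wild-type numbers 1, 2, 3 and 7 had 116, 98.7, 169 and 118 CPM in IL-4, against 0.772, 0.524, 0.848 and 0.659 CPM in medium. Every IL-4 library was far above every medium library, and in each condition the lowest AhR-deficient library was above the highest wild-type library. The log2 change with IL-4 was 6.84 ± 0.21 in AhR-deficient cells (adjusted p = 3.94e-11) and 7.47 ± 0.20 in wild type (adjusted p = 6.68e-12). AhR-deficient cells had more of it than wild type in IL-4, by 0.73 ± 0.14 on the log2 scale (adjusted p = 0.0266), and in medium, by 1.35 ± 0.27 (adjusted p = 0.0133). The medium values rest on 57 to 73 reads in AhR-deficient and 19 to 35 reads in wild-type libraries.

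These genotype differences of Slc7a2 kept their direction and lost the call when some libraries were left out. In IL-4, leaving out number 4 or 5 of the AhR-deficient libraries gave an adjusted p of 0.113 and 0.117, and leaving out number 1, 2 or 7 of the wild-type libraries gave 0.0806, 0.0798 and 0.0534. In medium, leaving out number 4 of the AhR-deficient libraries gave 1.30 on the log2 scale (adjusted p = 0.0770), and limma-voom gave 1.34 (adjusted p = 0.113) and, with the numbers as a random block, 1.35 (adjusted p = 0.127). Numbers 1 and 2, the wild-type libraries richest in neutrophil and eosinophil markers, had 116 and 98.7 CPM of Slc7a2 in IL-4. Without both numbers the difference was 0.54 in IL-4 (adjusted p = 0.213) and 1.23 in medium (adjusted p = 0.121). With a score of those markers as a covariate it was 0.52 in IL-4 (adjusted p = 0.184) and 1.20 in medium (adjusted p = 0.0250). The neutrophil sums stood at 219 to 407 CPM in AhR-deficient against 334 to 683 CPM in wild-type IL-4 libraries. Between genotypes 0 of the 8 neutrophil and 0 of the 5 eosinophil markers passed in either condition, which does not show equal content. In IL-4, S100a9 averaged 104 CPM in AhR-deficient cells against 208 CPM in wild type, and Prg2 23.9 against 70.1 CPM. Mpo (42.8 against 34.9 CPM) and Elane (36.6 against 30.2 CPM) went the other way. The cause of the Slc7a2 difference was not tested.

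Slc7a1 encodes CAT1, the transporter of the same family that most cell types express (ENSMUSG00000041313.14, chromosome 5, 148327410 to 148399904, minus strand). AhR-deficient numbers 4, 5 and 6 had 478, 452 and 429.7 CPM in IL-4, against 425, 329.9 and 344 CPM in medium. In wild type, numbers 1, 2, 3 and 7 had 380.3, 375, 448 and 356 CPM in IL-4, against 225, 258, 339 and 288 CPM in medium. It was higher in IL-4 in each of the 7 numbers and the groups did not overlap in either genotype. The log2 change was 0.31 ± 0.13 in AhR-deficient cells, which did not pass (adjusted p = 0.105) but did when numbers were fitted as a block (adjusted p = 0.0104) or number 4 in medium was left out (0.43, adjusted p = 0.0415). In wild type it rose by 0.49 ± 0.12 (adjusted p = 0.00434), and without numbers 1 and 2 its change of 0.35 missed the threshold (adjusted p = 0.0981). Between genotypes it did not pass in IL-4 (0.22 ± 0.12, adjusted p = 0.377) or in medium (0.40 ± 0.12, adjusted p = 0.0624), where it passed without wild-type number 3 (0.51, adjusted p = 0.0153).

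Of the summed level per kb of both transporters, Slc7a2 made up 36.6 ± 0.987% in AhR-deficient cells in IL-4, against 0.621 ± 0.103% in medium (SD, n = 3 each). It made up 28.6 ± 3.04% in wild type in IL-4, against 0.322 ± 0.0762% in medium (n = 4 each). Slc7a1 was therefore the larger of the pair in all 14 libraries, with or without IL-4. The IL-4 shares did not overlap between genotypes, at 35.5 to 37.5% in AhR-deficient and 24.95 to 32.2% in wild-type libraries, and this was not tested.

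**Figure D2:**
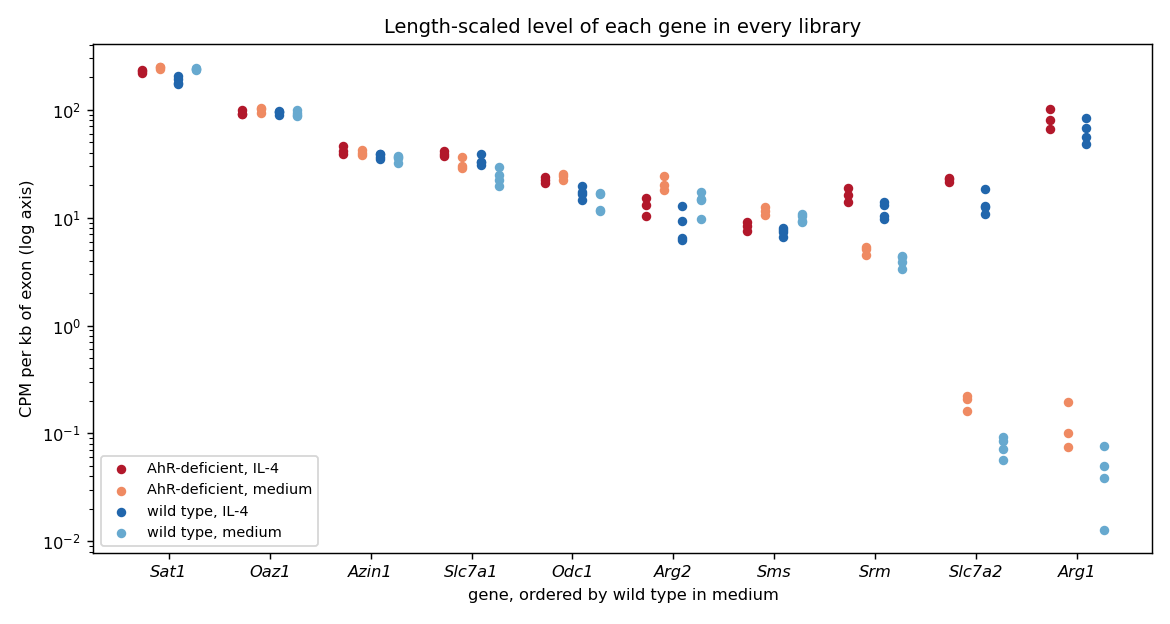
Level of each gene in every library in CPM per kb of exon on a log axis, with genes ordered by their mean in wild-type medium; colours give the group. Sat1 was the highest of the 10 in every group (187 to 244 CPM per kb). By union exon, Arg1 was the third in both IL-4 groups (83.3 and 63.8 CPM per kb in AhR-deficient and wild type). In AhR-deficient cells it overlapped there with Oaz1, the second. Arg1 was the last in both medium groups.

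Scaled per kb of exon, the order of the other members shifted less. By union exon, Sat1 came first and Oaz1 after it in all 4 groups. They stood at 227 and 93.4 CPM per kb in AhR-deficient cells in IL-4 and 237 and 92.5 in wild type in medium. Azin1 followed at 35.3 to 42.0 CPM per kb over the 4 group means, with Slc7a1 next to it at 24.1 to 39.3. These neighbours overlapped in IL-4 in both genotypes and were apart in medium in both. Odc1, at 14.3 to 24.1 CPM per kb, and Arg2, at 8.73 to 20.8, overlapped in medium in both genotypes. Sms came last in both IL-4 groups, at 8.38 CPM per kb in AhR-deficient and 7.42 in wild type. Slc7a2 and Arg1 came last in both medium groups, where they overlapped. In IL-4 Arg1 came between Oaz1 and Azin1, and it overlapped with Oaz1 in AhR-deficient cells. This order depends on the length used. The longest transcript of Arg1 has 1477 bases, against 2228 of union exon, and that of Oaz1 2526, against 2558. By longest transcript Arg1 stands above Oaz1 in both IL-4 groups, and some other neighbours change places as well.

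Odc1 encodes ornithine decarboxylase, the first and rate-limiting enzyme of polyamine synthesis (ENSMUSG00000011179.8, chromosome 12, 17544794 to 17551505, plus strand). AhR-deficient numbers 4, 5 and 6 had 76.4, 80.4 and 71.9 CPM in IL-4, against 87.2, 83.0 and 75.9 CPM in medium. Wild-type numbers 1, 2, 3 and 7 had 55.9, 49.7, 58.6 and 66.8 CPM in IL-4, against 40.1, 39.4, 58.0 and 56.6 CPM in medium. In both conditions the AhR-deficient libraries lay above all wild-type libraries, and the IL-4 and medium libraries of a genotype overlapped. The genotype difference was 0.40 ± 0.13 on the log2 scale in IL-4, which did not pass (adjusted p = 0.134), and 0.76 ± 0.13 in medium, which did (adjusted p = 0.00955). Leaving out number 4 of the AhR-deficient libraries lost that call (0.71, adjusted p = 0.0619). Without numbers 1 and 2, the wild-type libraries with the lowest Odc1 in medium and the most granulocyte markers, it was 0.51 and passed (adjusted p = 0.0489). With IL-4 its change was -0.11 ± 0.14 in AhR-deficient cells (adjusted p = 0.647) and 0.25 ± 0.13 in wild type (adjusted p = 0.144). When numbers were fitted as a block the change was -0.10 (adjusted p = 0.310) in AhR-deficient cells and 0.26 in wild type, which passed (adjusted p = 0.00769). The wild-type change also passed without number 3 in medium (0.34, adjusted p = 0.0472). By number it was -0.19, -0.05 and -0.08 in AhR-deficient numbers 4, 5 and 6, and 0.48, 0.33, 0.01 and 0.24 in wild-type numbers 1, 2, 3 and 7.

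The promoter of Odc1 is shown because Odc1 differed between AhR genotypes in medium and the letters GCGTG are the core bound by AhR with its partner ARNT. The 250 bases before the RefSeq start of Odc1 (GRCm38.p6, chr12:17544623-17544872, plus strand) follow, with GCGTG or its reverse complement in capitals.
Odc1: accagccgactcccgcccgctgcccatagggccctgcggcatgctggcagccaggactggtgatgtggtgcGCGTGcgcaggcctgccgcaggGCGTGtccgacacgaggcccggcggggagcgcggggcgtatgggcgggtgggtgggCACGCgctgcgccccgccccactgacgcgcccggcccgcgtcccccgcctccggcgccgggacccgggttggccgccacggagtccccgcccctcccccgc
The matches lay 179, 157 and 101 bases before the start. Of 32851 RefSeq promoters of 300 bases (250 before to 50 after the start), searched on both strands, 32.4% held GCGTG. The promoter of Odc1 held no CACGTG (the E-box that Myc with Max binds), which 7.15% of all promoters held. Nor did it hold TTC and GAA with 4 bases between them (the spacing that STAT6 prefers) or TTCNNNGAA (the spacing of other STAT proteins), which 6.95% and 8.30% held. Of the 10 members, 5 matched the promoter table. The promoter of Oaz1 held GCGTG 212, 36 and 26 bases before its start, and that of Sat1 held none of the 4 motifs. Slc7a1 and Sms had a pair of promoters each. One of Slc7a1 held TTCNNNGAA 146 bases before the start and GCGTG after it, and the other none of the motifs. Arg1, Arg2, Slc7a2, Srm and Azin1 had no match.

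Srm encodes spermidine synthase (ENSMUSG00000006442.10, chromosome 4, 148591503 to 148594993, plus strand). It had 25.9, 30.2 and 22.4 CPM in IL-4, against 8.28, 8.51 and 7.21 CPM in medium, in AhR-deficient numbers 4, 5 and 6. In wild-type numbers 1, 2, 3 and 7 it had 16.4, 15.7, 22.2 and 20.9 CPM in IL-4, against 7.03, 5.29, 6.85 and 6.19 CPM in medium. IL-4 and medium libraries were well apart, and every AhR-deficient IL-4 library was above every wild-type one. The change was 1.71 ± 0.15 on the log2 scale in AhR-deficient cells (adjusted p = 1.36e-06) and 1.57 ± 0.13 in wild type (adjusted p = 5.81e-07), and within numbers it ran from 1.22 to 1.83. Between genotypes it was 0.48 ± 0.14 in IL-4 (adjusted p = 0.0862) and 0.33 ± 0.15 in medium (adjusted p = 0.164), and neither passed.

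Sms encodes spermine synthase, the next step, and fell (ENSMUSG00000071708.11, chromosome X, 157443855 to 157492287, minus strand). AhR-deficient numbers 4, 5 and 6 had 54.9, 45.7 and 50.5 CPM in IL-4, against 75.9, 63.8 and 69.5 CPM in medium. Wild-type numbers 1, 2, 3 and 7 had 48.1, 44.3, 46.5 and 39.5 CPM in IL-4, against 55.2, 55.5, 64.8 and 61.9 CPM in medium. The groups did not overlap in either genotype. It fell by 0.47 ± 0.09 on the log2 scale in AhR-deficient cells (adjusted p = 0.00155) and by 0.41 ± 0.08 in wild type (adjusted p = 0.00117). The changes of AhR-deficient numbers 4, 5 and 6 lay close together, at -0.47, -0.48 and -0.46, while those of wild-type numbers 1, 2, 3 and 7 were -0.20, -0.33, -0.48 and -0.65. Sms is X-linked, and its genotype difference of 0.17 ± 0.09 in IL-4 and 0.23 ± 0.09 in medium did not pass (adjusted p = 0.308 and 0.107).

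The Sms promoter is printed because, of the 7 promoters matched to members, it was the only one with the E-box CACGTG, and Myc rose with IL-4 in both genotypes while Sms fell. The 250 bases before the start of this promoter (RefSeq, GRCm38.p6, chrX:157492288-157492537, minus strand, read 5′ to 3′ on that strand) have CACGTG in capitals, 196 bases before the start.
Sms: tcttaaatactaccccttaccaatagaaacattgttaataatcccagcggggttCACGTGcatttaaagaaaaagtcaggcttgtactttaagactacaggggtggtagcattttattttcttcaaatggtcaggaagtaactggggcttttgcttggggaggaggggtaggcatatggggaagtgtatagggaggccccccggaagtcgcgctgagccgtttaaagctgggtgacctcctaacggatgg
The other promoter of Sms held GCGTG 140 and 120 bases before its start and once after it. A match of letters describes the sequence and does not show binding.

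Sat1 encodes spermidine/spermine N1-acetyltransferase, which starts polyamine breakdown (ENSMUSG00000025283.15, chromosome X, 155213132 to 155216449, minus strand). It was at 608, 652 and 632 CPM in IL-4, against 658.5, 684 and 689 CPM in medium, in AhR-deficient numbers 4, 5 and 6. It was at 480.5, 567, 494 and 529 CPM in IL-4, against 643, 675, 657.5 and 659 CPM in medium, in wild-type numbers 1, 2, 3 and 7. The medium libraries of the genotypes overlapped, and the wild-type IL-4 libraries were the lowest of all and overlapped with none. Its change was -0.10 ± 0.06 on the log2 scale in AhR-deficient cells, which did not pass (adjusted p = 0.232), and in wild type it fell by 0.35 ± 0.05 (adjusted p = 1.13e-04). AhR-deficient cells had more Sat1 than wild type in IL-4 (0.28 ± 0.06, adjusted p = 0.0280) and did not differ past the threshold in medium (0.04 ± 0.06, adjusted p = 0.693). By number the change was -0.11, -0.07 and -0.12 in AhR-deficient cells, and -0.42, -0.25, -0.41 and -0.32 in wild type. Leaving out number 4, 5 or 6 of the AhR-deficient IL-4 libraries lost the genotype call in IL-4 (adjusted p = 0.0834, 0.128 and 0.0565), as did leaving out number 1 or 7 of wild type (adjusted p = 0.0728 and 0.0504). Without numbers 1 and 2 the difference was 0.31 (adjusted p = 0.0733). With the granulocyte marker score as a covariate it was 0.28 (adjusted p = 0.132). Like Sms, Sat1 is X-linked.

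Azin1 encodes antizyme inhibitor 1, a relative of ornithine decarboxylase without its activity (ENSMUSG00000037458.15, chromosome 15, 38487427 to 38519266, minus strand). Oaz1 encodes antizyme 1 (ENSMUSG00000035242.15, chromosome 10, 80826656 to 80829290, plus strand). Azin1 had 289, 258 and 242 CPM in IL-4, against 266, 247 and 239 CPM in medium, in AhR-deficient cells. In wild type it had 242, 228, 243 and 219 CPM in IL-4, against 199.7, 228, 231 and 225 CPM in medium. Oaz1 lay between 225 and 264 CPM in all 14 libraries. The ranges of the 4 groups overlapped for Oaz1, and neither gene passed any comparison. With IL-4 Azin1 changed by 0.07 ± 0.08 in AhR-deficient cells (adjusted p = 0.557) and 0.08 ± 0.07 in wild type (adjusted p = 0.404). The change of Oaz1 was -0.09 ± 0.06 in AhR-deficient cells (adjusted p = 0.302) and 0.03 ± 0.05 in wild type (adjusted p = 0.737). Between genotypes Azin1 differed by 0.17 ± 0.07 in IL-4 (adjusted p = 0.207) and 0.18 ± 0.07 in medium (adjusted p = 0.116), where the libraries did not overlap. For Oaz1 it was -0.01 ± 0.06 in IL-4 (adjusted p = 0.938) and 0.11 ± 0.06 in medium (adjusted p = 0.253). Azin1 made up 31.0 ± 2.71% of the summed level per kb of Azin1 and Oaz1 in AhR-deficient cells in IL-4 and 28.7 ± 1.25% in medium (SD, n = 3 each). In wild type it made up 28.3 ± 0.924% in IL-4 and 27.7 ± 2.43% in medium (n = 4 each). Of Azin1 and Odc1 together, a share added after the data were seen, Azin1 made up 65.2 ± 1.90% in IL-4 and 62.5 ± 0.652% in medium in AhR-deficient cells. In wild type it made up 68.8 ± 3.22% in IL-4 and 71.4 ± 3.67% in medium. Oaz1-ps and Sms-ps, processed pseudogenes that could share reads with their parents, had 1.65 to 2.72 and 0.226 to 0.919 CPM.

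**Figure D3:**
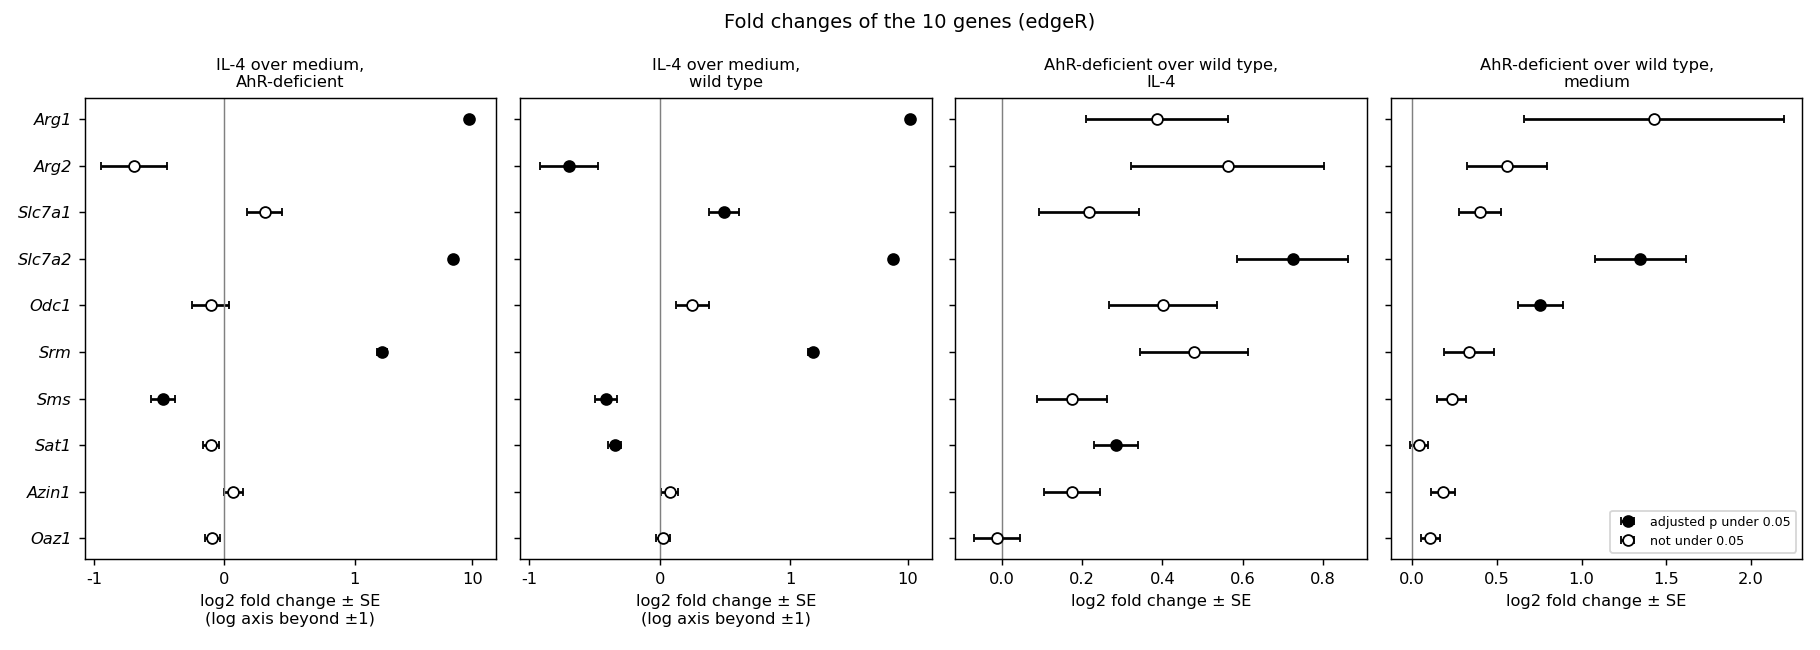
Log2 fold change with its standard error for each of the 10 genes in 4 comparisons from edgeR; filled points passed at an adjusted p under 0.05, and the axes of the IL-4 panels are logarithmic beyond 1. With IL-4 Arg1 and Slc7a2 stood far from the rest (9.36 and 6.84 in AhR-deficient cells, 10.40 and 7.47 in wild type), and nearly all genotype differences lay above 0.

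Set side by side, the genotype differences of the 10 leaned to AhR-deficient cells. In IL-4, Slc7a2 and Sat1 were called, both higher in AhR-deficient cells, which makes 2 of 10 beside 1.62% of all genes called and 0.956% called higher. In medium, Slc7a2 and Odc1 were called, both higher, beside 8.11% of all genes called and 4.16% called higher. None was called lower, beside 0.664% of all genes in IL-4 and 3.95% in medium. The log2 difference was above 0 for 9 of the 10 in IL-4, where 48.1% of all genes were above 0, and for 10 of 10 in medium, where 52.1% were. The exception was Oaz1 in IL-4 (-0.01 ± 0.06). The median difference of the 10 was 0.34 in IL-4 and 0.37 in medium, against -0.01 and 0.01 over all genes. AhR-deficient and wild-type libraries did not overlap for 4 of the 10 in IL-4 (18.2% of all genes) and for 5 of the 10 in medium (20.0%). The IL-4 and medium comparisons have no library in common, but same-numbered libraries paired, so they are not independent of each other. Leaving out numbers 1 and 2, 0 members passed in IL-4 and 1 (Odc1) in medium, where 25 and 30 genes in all did. In separate fits, leaving out only the IL-4 library of AhR-deficient number 4 left 24 genes called in all in IL-4. Leaving out only its medium library left 95 called in medium. In each of these fits 0 members passed in that condition.

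Whether the IL-4 response differed between genotypes was tested as an interaction, the change in AhR-deficient cells minus that in wild type. None of the 10 passed, as 0.00% of all genes did with edgeR. At an unadjusted p under 0.05 stood 1 of the 10 (Sat1) and 3.78% of all genes. The interaction of Sat1 was 0.24 ± 0.08 (adjusted p = 1.0), that of Slc7a2 -0.62 ± 0.30, that of Odc1 -0.36 ± 0.19 and that of Arg1 -1.04 ± 0.79 (adjusted p = 1.0 for each). DESeq2 called 3 genes in all, limma-voom 0, and DESeq2 with that block 60, none of them members. When numbers were fitted as a block in edgeR, 4 of the 10 stood at an unadjusted p under 0.05, as did 1252 of all 14754 genes. These 4 were Arg1, Slc7a2, Odc1 and Sat1, and their adjusted p was 0.528, 0.398, 0.398 and 0.347.

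**Figure D4:**
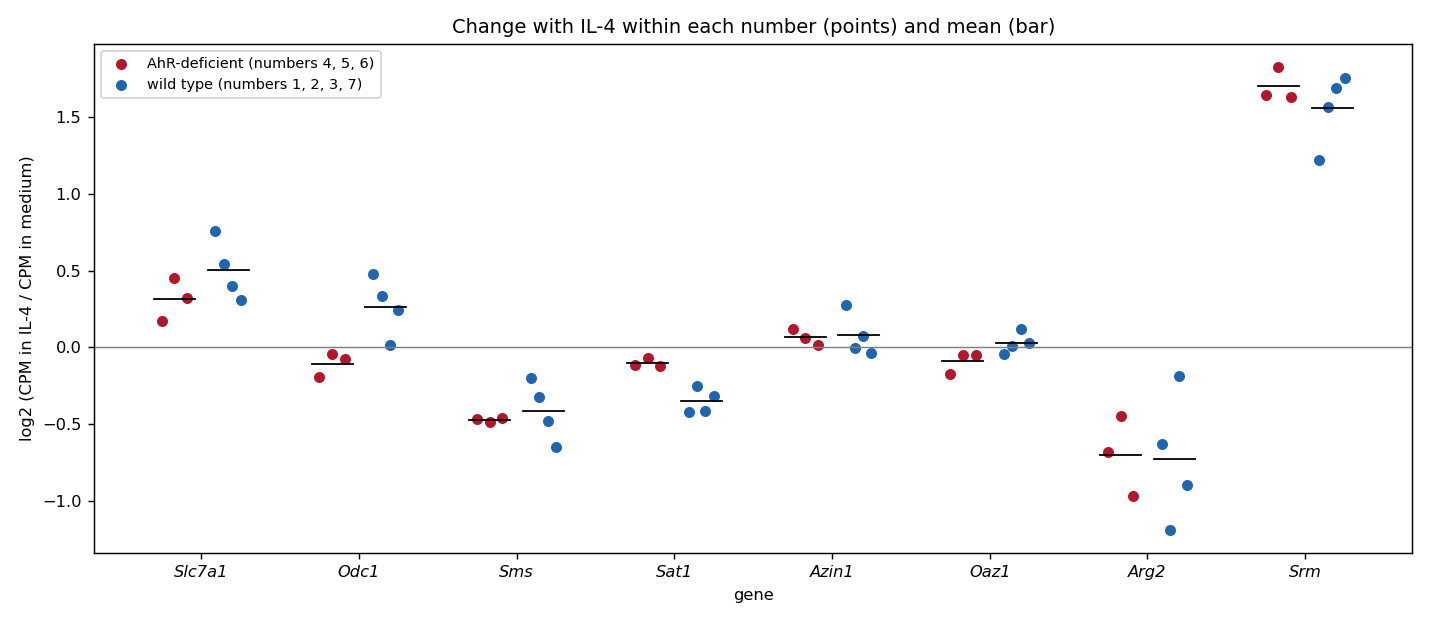
Log2 of CPM in IL-4 over CPM in medium within each number (points) and their mean (bar) for 8 of the 10 genes, AhR-deficient at the left of each gene and wild type at the right; Arg1 and Slc7a2 lie far above the axis. Odc1 was below 0 in all 3 AhR-deficient numbers and above 0 in all 4 wild-type numbers, and the changes of Sat1 were -0.12 to -0.07 in AhR-deficient numbers and -0.42 to -0.25 in wild-type numbers.

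Other genes of arginine and proline use were counted as a list of 30, of which 25 were tested. With IL-4, 9 rose and 4 fell in AhR-deficient cells, where 15.4% of all genes rose and 14.2% fell. In wild type 10 rose and 2 fell, where 19.4% and 16.5% of all genes did. Gatm, which makes the creatine precursor guanidinoacetate from arginine and glycine, rose most, by 3.72 ± 0.17 on the log2 scale in AhR-deficient cells (173 ± 14.1 against 13.2 ± 1.33 CPM) and by 4.06 ± 0.15 in wild type (197 ± 45.1 against 11.8 ± 1.64 CPM). Azin2, an antizyme inhibitor related to Azin1, rose to 10.3 ± 0.417 CPM in IL-4, against 1.63 ± 0.275 CPM in medium, in AhR-deficient cells. Wild-type cells had 8.68 ± 0.878 CPM in IL-4, against 1.10 ± 0.454 CPM in medium. Slc7a7, the light chain of a transporter that exports arginine in exchange for neutral amino acids, fell by 1.11 ± 0.06 in AhR-deficient cells and by 0.90 ± 0.05 in wild type. Slc7a6, its relative, rose by 0.81 ± 0.09 and 0.70 ± 0.07 in the same order. Rars, the arginyl-tRNA synthetase, rose by 0.58 ± 0.06 and 0.52 ± 0.05. Nos2, the inducible nitric oxide synthase that competes with arginase for arginine, had 14 counts over all 14 libraries and was not tested, nor were Otc, Cps1, Agmat and Ddah1.

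Between genotypes, 1 gene of that list was higher in AhR-deficient cells in IL-4, and 5 were higher and 1 lower in medium (all genes: 0.956% higher in IL-4, and 4.16% higher and 3.95% lower in medium). Fits without 1 library gave 0 to 2 higher in IL-4, with 0 when AhR-deficient number 4 or 5 or wild-type number 2 in IL-4 was left out and 2 without wild-type number 1 in medium. In medium they gave 2 to 6 higher and 0 to 2 lower, with 2 higher and 0 lower without AhR-deficient number 4, 3 higher without AhR-deficient number 6 or wild-type number 1 or 2, and 2 lower without wild-type number 3. Without both numbers 1 and 2, 2 were higher and 0 lower in medium. Slc3a2, the heavy chain that pairs with Slc7a5, Slc7a6 and Slc7a7, was higher in both, by 0.39 ± 0.06 in IL-4 (adjusted p = 0.0138) and 0.55 ± 0.06 in medium (adjusted p = 6.49e-04). Ass1, which makes argininosuccinate and so recycles citrulline to arginine, averaged 276 ± 27.2 CPM in AhR-deficient and 176 ± 11.1 CPM in wild-type cells in medium (0.65 ± 0.08, adjusted p = 7.37e-04). Its difference in IL-4 did not pass (0.26 ± 0.08, adjusted p = 0.100). Slc7a7, Slc7a5 and Aldh18a1 were also higher in medium, and Slc25a15, the mitochondrial ornithine carrier, was lower there (-0.61 ± 0.13, adjusted p = 0.0136). The median difference of the 25 was 0.11 in IL-4 and 0.12 in medium, against -0.01 and 0.01 over all genes.

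Further genes of polyamine and hypusine metabolism formed a list of 27, of which 23 were tested. In AhR-deficient cells 6 rose with IL-4 and 2 fell, and in wild type 7 rose and 2 fell, beside the shares of all genes given for the first list. Without wild-type number 1 or 2 in IL-4, 4 rose in wild type, and over all fits without 1 library 4 to 8 did. Smox, the spermine oxidase, fell to 35.3 ± 2.82 CPM in IL-4, against 79.5 ± 7.25 CPM in medium, in AhR-deficient cells (-1.17 ± 0.08, adjusted p = 1.50e-07). In wild type it fell to 28.0 ± 2.41 CPM, against 60.7 ± 2.32 CPM (-1.12 ± 0.07, adjusted p = 3.57e-08). Myc, a transcription factor for which Odc1 and Srm are known targets, rose by 1.70 ± 0.13 in AhR-deficient cells and by 1.84 ± 0.12 in wild type. Eif5a, the protein that receives hypusine from spermidine, rose by 0.40 ± 0.06 and 0.51 ± 0.05, and Oaz2, the second antizyme, by 0.50 ± 0.09 and 0.60 ± 0.08, in the same order. Mtap, which salvages the methylthioadenosine left by polyamine synthesis, rose by 0.77 ± 0.12 in AhR-deficient cells and by 0.46 ± 0.10 in wild type. Dhps and Dohh, which make hypusine, did not pass in either genotype, and neither did Amd1, the decarboxylase that supplies aminopropyl groups. Sat2, Oaz3 and Slc18b1 were not tested for low counts.

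In that second list, Myc and Smox were higher in AhR-deficient cells in both conditions. Myc averaged 16.9 ± 1.65 CPM in AhR-deficient and 11.4 ± 1.38 CPM in wild-type cells in IL-4 (0.57 ± 0.12, adjusted p = 0.0333). In medium it averaged 5.18 ± 0.712 and 3.17 ± 0.386 CPM in the same order (0.71 ± 0.13, adjusted p = 0.0106). Smox differed by 0.34 ± 0.08 in IL-4 (adjusted p = 0.0488) and by 0.39 ± 0.08 in medium (adjusted p = 0.0122). In medium Nqo1 was higher and Mat2b and Atp13a2 were lower as well. The 2 calls in IL-4 ran from 0 to 2 in fits without 1 library, with 0 without AhR-deficient number 4 or 5 or wild-type number 1, 2 or 7 in IL-4, and 1 without AhR-deficient number 6 in IL-4 or AhR-deficient number 5 or wild-type number 2 or 3 in medium. In medium the 3 higher calls ran from 0, without AhR-deficient number 4, to 4. The 2 lower calls ran from 0, without AhR-deficient number 4 or wild-type number 2, to 4, without wild-type number 3, with 1 without AhR-deficient number 5. Without numbers 1 and 2 none of these list calls remained in either condition, and no gene of either list passed the interaction with edgeR. The median difference of the 23 was -0.05 in IL-4 and -0.01 in medium.

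The genes nearest in pattern were found by the root mean square difference of log2 CPM, centred per gene, over the 14 libraries and 10006 genes. For Arg1 they were Socs1 (1.25), Slc7a2 (1.33) and Batf3 (1.495), and for Slc7a2 they were Batf3 (0.42), Socs1 (0.46) and Mrc1 (0.66). Socs1, a feedback inhibitor of cytokine signalling, averaged 147 and 1.13 CPM in IL-4 and medium in AhR-deficient cells and 130.3 and 0.678 CPM in wild type. Mrc1, a mannose receptor of macrophages, averaged 364 and 4.61 CPM and 339.6 and 3.85 CPM in the same order. For Odc1 they were Asns (0.12), Metrnl (0.12) and Kdm5c (0.13). Asns, the asparagine synthetase, averaged 254 and 291 CPM in AhR-deficient cells in IL-4 and medium, and 176 and 162 CPM in wild type, so that like Odc1 it was higher in AhR-deficient cells in both conditions. When each gene was also scaled by its own SD, 0 of the 3 remained for Arg1, 0 for Slc7a2 and 1 (Asns) for Odc1. The libraries share depth scaling and, within a number, their source.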

How the data were processed

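The authors deposited raw counts per gene, 1 column for each of 14 libraries. Per the submitters' processing notes, FastQC, STAR and the mm10 build were used; the sources used here do not give roles, versions, the counting program, the annotation release or the strand setting. Per the labels' protocols, 500 ng of RNA gave stranded mRNA libraries read as pairs of 100 nt. Symbols and positions came from GENCODE M21 (GRCm38), in which 55394 of 55487 identifiers were found when versions were ignored and 55094 with them.

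Groups came from the sample titles. The analysis used edgeR 4.0.16 in R 4.3.3, with filterByExpr on the 4 groups, TMM scaling, 1 mean per group over all 14 libraries (10 residual degrees of freedom), and quasi-likelihood F-tests. Benjamini-Hochberg adjustment ran over all 14754 genes that passed the filter, and an adjusted p under 0.05 was a call. The standard error is the log2 fold change divided by the square root of F. It is likely too small for a change from near 0, as in Arg1 with IL-4. CPM values are TMM-scaled, and levels per kb use the union of a gene's exons. The counts kept were at least 99.9% of each library. Errors come from the spread between libraries.

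Titles carry a number. After group means were removed, libraries of the same number correlated at 0.17 to 0.71 over 10575 genes, and in 7 of 7 pairs each matched its own number best, so the numbers were treated as pairs in an alternative fit. Each number belongs to 1 genotype, which leaves no fixed block for the genotype comparisons.

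All 10 members are named in every comparison, with Ahr, the counts of each list, the 4 genes of a list with the smallest adjusted p, and the 3 genes nearest to Arg1, Slc7a2 and Odc1 among genes whose mean log2 CPM was at least 1. Other genes of the lists were named after their values were seen. The members and lists were chosen with earlier results of these data known.

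Alternatives were DESeq2 1.42.0, DESeq2 size factors or upper-quartile scaling in edgeR, limma-voom (limma 3.58.1), no filter, a filter of 1 CPM in 3 libraries, only the groups compared, autosomal genes alone, the longest transcript as length, the numbers as a block (fixed or random), and each library left out. Added after seeing the data were DESeq2 with the block, a covariate for granulocyte content (the average log2 CPM over neutrophil and eosinophil markers), and fits without numbers 1 and 2. These markers include Cxcr2, which rose with IL-4 in both genotypes, and Mpo and Elane, whose means were higher in AhR-deficient cells. The score may therefore not follow granulocyte content alone. The fits were tested on simulated counts. Promoters came from RefSeq (GRCm38.p6). Protein sequences were not used here, and 1 gene of a list is not reported here.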

Additional observations from a re-analysis of the deposited data

Results flagged for a closer look

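The log2 change of Odc1 with IL-4 had opposite signs in the 2 genotypes. Its level was lower in IL-4 than in medium in all 3 AhR-deficient numbers and higher in all 4 wild-type numbers, and the mean log2 change by number differed by -0.37. The smallest wild-type change was 0.01, in number 3. Tested as an interaction, the difference was -0.36 ± 0.19 with edgeR (adjusted p = 1.0) and -0.37 ± 0.10 with the numbers as a block (adjusted p = 0.398), so it did not pass. Without numbers 1 and 2, which held the most granulocyte transcripts, it was -0.22 (adjusted p = 1.0). With the granulocyte marker score as a covariate it was -0.41 (adjusted p = 0.995). In 20 groups of 4 libraries, all of them wild type, no member had a library far from the others by Dixon's test, where chance gives about 1 in 20 groups. The AhR-deficient groups, of 3 libraries each, were not tested in this way.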

How the results depend on the processing

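For the 10 genes, 654 of 700 values from fits without 1 library and 543 of 589 from other alternatives kept their direction and side of the threshold. The IL-4 responses of Arg1, Slc7a2, Srm and Sms in both genotypes, and of Sat1 in wild type, were called under every alternative that held them. The fit on autosomes alone holds neither Sms nor Sat1. Members lower with IL-4 in AhR-deficient cells numbered 2, not 1, with DESeq2, limma-voom, no filter, upper-quartile scaling, only the 2 groups compared, numbers 1 and 2 left out, and the numbers as a replicate block (fixed in edgeR, fixed in DESeq2, or random), and 0 on autosomes alone, which leave out Sms. On autosomes alone 1 member, not 3, was lower in wild type. Apart from calls given above, the blocks changed 2 member calls, where the random block called Slc7a1 in medium (adjusted p = 0.0457) and Srm in IL-4 (adjusted p = 0.0469) between genotypes. For the interaction DESeq2 called 3 genes, and 60 with the block, against 0.

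The genotype comparisons depended most on the processing. In IL-4 the 239 genes called became 802 with DESeq2, 361 with no filter, 420 with the random block, 523 with only the 2 groups, 29 with the granulocyte covariate and 25 without numbers 1 and 2. The 2 members called there became 4 with DESeq2, 1 on autosomes alone, and 0 with the covariate or without numbers 1 and 2. In medium the 1197 genes became 1990 with DESeq2, 484 with the covariate, 59 with only the 2 groups and 30 without numbers 1 and 2. The 2 members became 4 with DESeq2, 1 with limma-voom, 0 with only the 2 groups and 1 without numbers 1 and 2. Without 1 library at a time, these counts ran from 24 to 533 genes and 0 to 2 members in IL-4, and from 95 to 1716 genes and 0 to 3 members in medium, and members lower with IL-4 in AhR-deficient cells from 1 to 2. The cause was not tested.

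Signs that turned were of uncalled values near 0. The interaction of Arg2 was -0.052 with the covariate and -0.15 without numbers 1 and 2 (-0.13 to 0.25 without 1 library), and that of Sms 0.11 without numbers 1 and 2 (-0.12 to 0.014). The interaction of Azin1 was 0.010 with a filter of 1 CPM, 0.0072 with DESeq2, 0.0073 with its size factors, 0.020 with no filter, 0.0039 with DESeq2 and the block, and 0.067 without numbers 1 and 2 (-0.080 to 0.049). The genotype difference of Oaz1 in IL-4 was 0.0018 with DESeq2 and 0.0017 with its size factors (-0.052 to 0.014). Without 1 library, the change of Azin1 in AhR-deficient cells ran from -0.0031 to 0.13, and that of Oaz1 in wild type from -0.0012 to 0.065. Depth limits the precision of Arg1 and Slc7a2 in medium.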
